A study of Mus musculus with 6 samples.

Results

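The genes of the proteasome were examined in RNA of bone marrow neutrophils, as a set of 54 rows of the deposited table chosen by symbol alone (Psma to Psmg followed by a digit, and all symbols that start with Psme) out of 52636 rows. The rule uses no measured value, but earlier results of these data were known when it was set. The 6 libraries came from mice aged 10 weeks and of strain C57BL/6N, 3 of them labelled WT and 3 labelled LRP5-KO with the genotype LRP5f/f/Lyz2Cre+, in which floxed Lrp5 alleles meet a Cre recombinase driven by the myeloid gene Lyz2. The labels name a Percoll density gradient for the isolation, whereas the study's methods name cells sorted as positive for both CD11b and Ly6G for the sequencing, and Lyz2 is also active in monocytes and macrophages. No label says whether the libraries came from separate animals, so p-values measure the spread between libraries, which may be technical. Expression is given as TPM, a transcript abundance from which gene length has been taken out and which sums to 1000000 in every library.

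The proteasome is the protease that degrades proteins tagged with ubiquitin. Its barrel-shaped core particle is built of rings of alpha and beta subunits, and its beta rings carry the catalytic sites of Psmb5, Psmb6 and Psmb7. A regulatory particle, made of a base with ATPases and a lid, recognises tagged proteins, removes the ubiquitin and unfolds them into the core. In cells exposed to interferon, and constitutively in many blood cells, the catalytic subunits are replaced by Psmb8, Psmb9 and Psmb10, which gives the immunoproteasome, a source of peptides for MHC class I. The PA28 activator, encoded by Psme1 and Psme2, can cap the core in place of the regulatory particle.

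Between 249841492 and 340580330 reads were listed for each library. The targeted gene Lrp5 had a mean of 1.29 ± 0.15 TPM over WT libraries and of 1.84 ± 0.21 TPM over LRP5-KO libraries (SD, n = 3 each), with every LRP5-KO library above every WT library. An exact two-sided permutation test gave p = 0.1, which is as small as a design of 3 against 3 can give. The Lrp5 transcript was therefore not lower in the libraries labelled LRP5-KO. A TPM value per gene cannot show whether the floxed part of Lrp5 was deleted. Lyz2, the gene whose locus drives Cre, fell from 25963 ± 1039 to 13792 ± 375 TPM (SD, n = 3 each; log2 fold change −0.91, limma adjusted p = 0.00351) without overlap. Directions below are those of the labels. Summed neutrophil markers (10 genes, among them S100a8 and Ly6g) were 392787 to 438136 TPM in WT and 422091 to 442997 TPM in LRP5-KO libraries, and none of them was at 0. Other cells left small sums. The 9 monocyte and macrophage markers summed to 313 to 334 TPM in WT and 339 to 365 TPM in LRP5-KO libraries, the 8 T and NK cell markers to 11.5 to 13.5 and 15.9 to 17.5 TPM, and the 7 B cell markers to 12.6 to 15.2 and 13 to 13.7 TPM. Single genes made up most of the first 2 sums. Mpeg1 was 258 to 268 and 274 to 292 TPM, and 6 of the 9 markers had a log2 fold change above 0 (against 58.8% of all genes). Of the 9, 4 were higher without overlap (against 17.4% of all genes), 0 were lower without overlap and 0 had an adjusted p under 0.05. The 4 were Mpeg1, Adgre1, C1qa and C1qb, with log2 fold changes of 0.09, 0.36, 0.24 and 0.44. Cd3d was 9.33 to 10.6 and 13.4 to 14.5 TPM, and 6 of the 8 T and NK cell markers averaged below 1 TPM. The 6 eosinophil and mast cell markers summed to 8.66 to 10.4 and 11.7 to 12.4 TPM, and of these Prg2, an eosinophil granule protein, rose from 0.85 to 1.16 TPM in WT to 2.33 to 3.13 TPM in LRP5-KO libraries (log2 fold change 0.91, limma adjusted p = 0.0341). The 7 erythroid markers summed to 48 to 56.9 and 42.1 to 53.9 TPM, and the 6 dendritic cell markers to 28.5 to 38.5 and 29.2 to 30.5 TPM. For the 4 progenitor markers the sums were 6.4 to 7.76 and 7.67 to 8.63 TPM. Of the tested genes of these lists, Kit (0.25) was higher without overlap (against 17.4% of all genes). H2-Ab1 (−0.21) and Hba-a1 (−0.31) were lower without overlap (against 12.3%). No marker of all these lists was at 0 in all libraries. Of 11 genes of immature neutrophils 10 had a log2 fold change above 0 (median 0.23), and of 10 genes of mature neutrophils 2 did (median −0.13), against 58.8% of all genes. The median GC content of these lists was 53.2% and 45.9%. In bulk RNA, fewer cells of a type and less RNA per cell cannot be told apart. The part of these markers in the results below was not tested. WT replicates 1 and 2 stood apart from the other libraries. Ribosomal RNA made up 1.2% and 1.3% of their reads, 3.30% of those of WT replicate 3 and 2.69% to 2.98% of those of the LRP5-KO libraries. GC-rich transcripts were also lower in WT replicates 1 and 2, where the deviation of all genes correlated with GC content at −0.61 and −0.43 (Spearman), against 0.33 to 0.44 in the other 4 libraries. Results are therefore also given against WT replicate 3 alone. Intronic reads set the groups apart with WT replicate 3 included, at 7.78% to 9% in WT and 10.62% to 11.23% in LRP5-KO libraries, and so did reads in coding and untranslated exons, at 83.84% to 87.03% and 81.85% to 82.41%. The part of these shares in the results was not tested.

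Neutrophils expressed nearly the whole proteasome. Of the 54 genes, 47 had a mean of at least 1 TPM and were tested, and these were spread over a 109-fold range of mean level, from Psmg2 at 1.5 TPM to Psmb3 at 163 TPM, with a median of 46.1 TPM. The 7 genes under the filter were the testis core subunit Psma8 (0 TPM in 5 libraries and 0.0084 TPM in WT replicate 1), the thymus core subunit Psmb11 (listed at 0 in every library), the pseudogenes Psmb5-ps, Psmb6-ps, Psmb6-ps2 and Psmb7-ps2 (at most 0.069 TPM), and Psmc3ip at 0.83 TPM, which shares only its name with the family and encodes a recombination protein. The tissue-specific core subunits of testis and thymus were thus at or near 0 here.

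**Figure D1:**
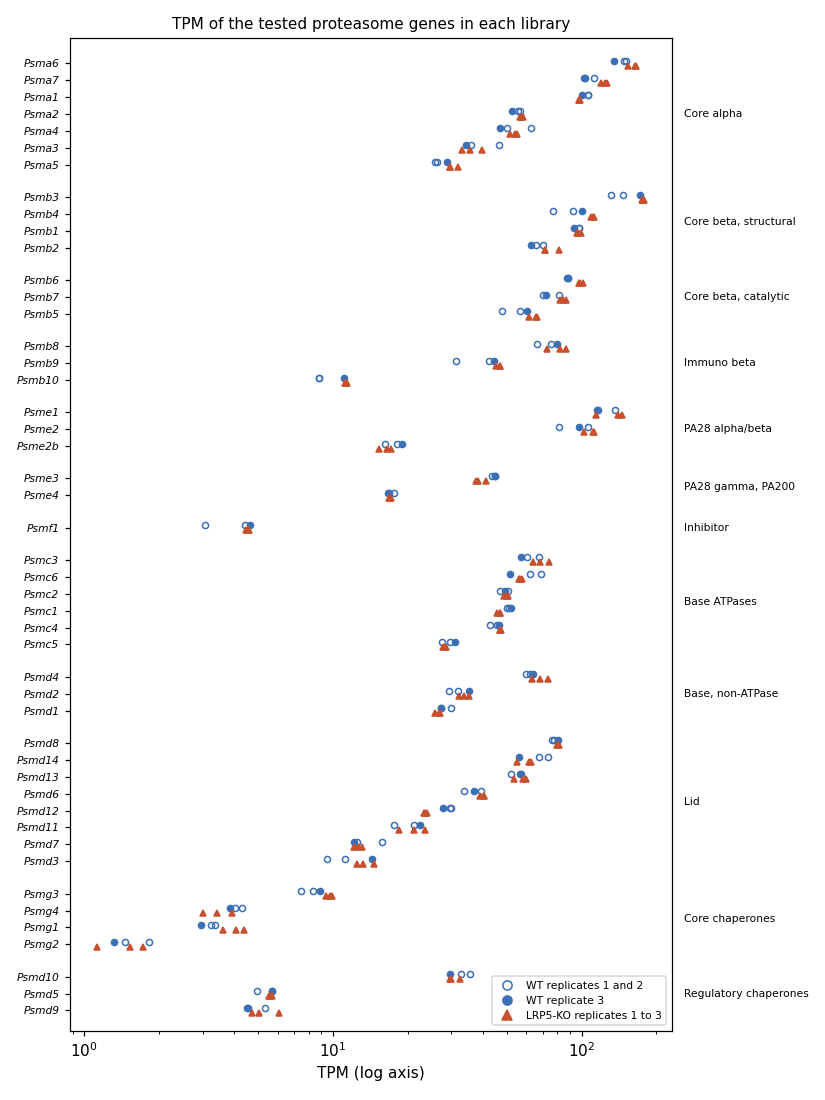
TPM of the 47 tested proteasome genes on a log axis, ordered by class and mean level, with a symbol for each library: open circles are WT replicates 1 and 2, the filled circle is WT replicate 3 and triangles are the 3 LRP5-KO replicates. Core subunits sit between 28.6 and 163 TPM on average, while 3 of the 4 core chaperones sit below 5 TPM.

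No proteasome gene passed the test between the groups. With limma on log2(TPM + 1), adjusted over all 9775 genes, 0 of the 47 genes had an adjusted p under 0.05, where 0.532% of all genes did. The smallest adjusted p was 0.0956, that of Psmd12. At an unadjusted p under 0.05 there were 9 proteasome genes (19.1%), against 23.5% of all genes tested. These were 7 with higher values in LRP5-KO (against 14.4% of all genes) and 2 with lower values (against 9.12%). The 3 values of the groups did not overlap in 14 genes that were higher (29.8%, against 17.4% of all genes) and in 5 that were lower (10.6%, against 12.3% of all genes). With median-ratio scaling of the libraries, this split became 8 higher of 47 (against 15.5% of all genes) and 8 lower. The share of all genes that were lower is not given for that scaling. The median log2 fold change was 0.06 over the 47 genes and 0.04 over all genes tested. Of the 19 genes without overlap, 10 belonged to the core particle, 4 to the regulatory particle, 2 to the immunoproteasome, 2 to the chaperones and 1, Psme3, to the other activators.

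**Figure D2:**
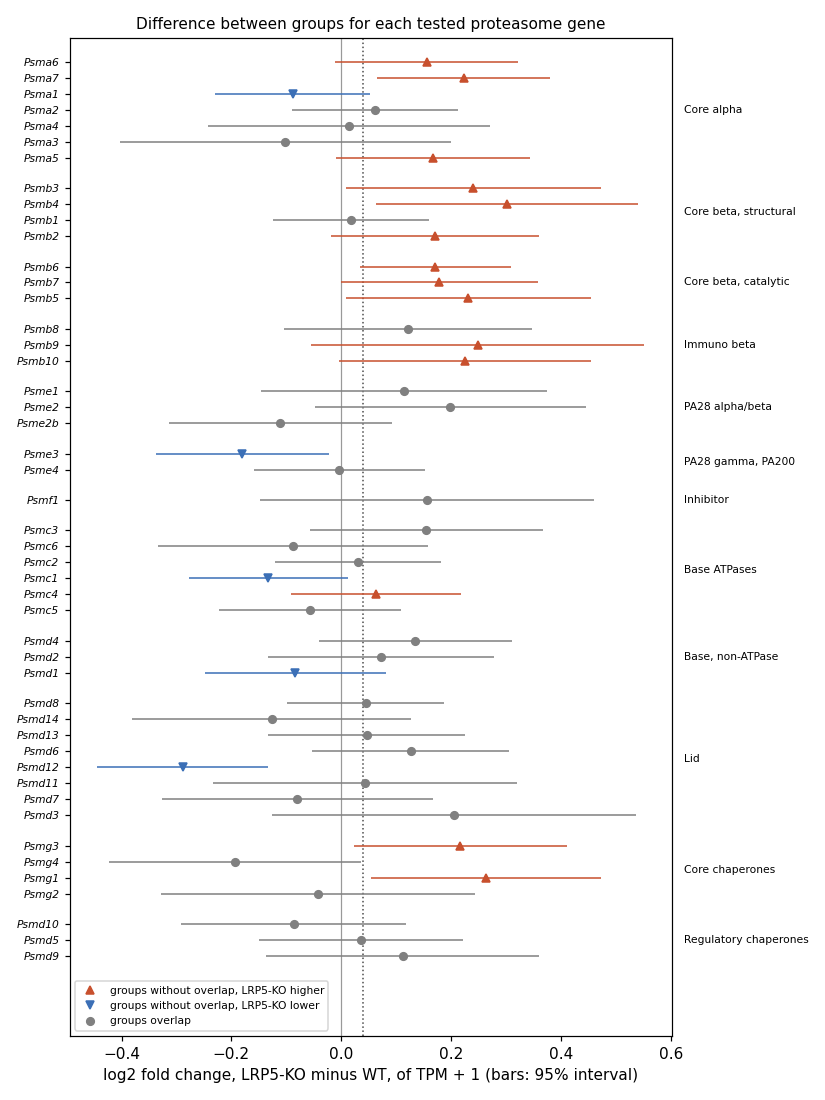
log2 fold change of TPM + 1 (LRP5-KO minus WT) with its 95% interval from limma for each tested proteasome gene. Upward triangles mark genes whose LRP5-KO values all lie above the WT values, downward triangles the opposite, and the dotted line is the median of all genes tested, 0.04. The core beta genes all lie to the right of 0 (Psmb1 to the left with median-ratio scaling), whereas base and lid genes lie on both sides.

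The core particle had the most genes on the higher side. Of its 14 constitutive subunits, 12 had a log2 fold change above 0 (against 58.8% of all genes), and the groups did not overlap in 9 that were higher (64.3%, against 17.4% of all genes) and in 1 that was lower, Psma1. With median-ratio scaling, 10 of the 14 were above 0 and 4 were higher without overlap (against 15.5% of all genes). The median log2 fold change was 0.17, with a range from −0.10 for Psma3 to 0.30 for Psmb4. Of the 14, 5 were higher at an unadjusted p under 0.05 in limma (against 14.4% of all genes). Added up within a library, the 14 genes gave 1142, 1157 and 1149 TPM in WT replicates 1 to 3 and 1279, 1276 and 1246 TPM in LRP5-KO replicates 1 to 3. The sums were 1149 ± 7.37 TPM (SD, n = 3) in WT and 1267 ± 18.3 TPM (SD, n = 3) in LRP5-KO libraries, a ratio of 1.10, and they did not overlap. This separation is shown for TPM without median-ratio scaling only. With that scaling the core median fell from 0.17 to 0.13, and the sums were not computed. No test was made of a sum over chosen genes.

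Of the 7 alpha subunits, which form the outer rings and the gate of the barrel, Psma7 had the smallest p. It was 112, 103 and 102 TPM in the WT libraries and 125, 127 and 119 TPM in the LRP5-KO libraries. Its groups did not overlap, and its log2 fold change was 0.22 (standard error 0.067, limma adjusted p = 0.136). Psma6, the most abundant alpha subunit, was 149, 151 and 134 TPM in WT and 164, 165 and 154 TPM in LRP5-KO libraries, again without overlap (log2 fold change 0.16, limma adjusted p = 0.236). Psma5, the least abundant, was 26.2, 25.8 and 28.7 TPM and 29.5 to 31.8 TPM, at a log2 fold change of 0.17. The opposite direction was seen in Psma1, with 106, 106 and 101 TPM in WT and 98.0, 98.3 and 98.0 TPM in LRP5-KO libraries (log2 fold change −0.09, limma adjusted p = 0.400). Psma2, Psma3 and Psma4 overlapped between the groups, Psma3 turned from −0.10 to 0.07 against WT replicate 3 alone, and the values of Psma3 and Psma4 were highest in WT replicate 1.

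All 7 constitutive beta subunits had a log2 fold change above 0, from 0.02 for Psmb1 to 0.30 for Psmb4, except that Psmb1 lay below 0 with median-ratio scaling (−0.03), without WT replicate 3 and with the trends of GC content and length removed. Of the 7, 6 were higher without overlap (against 17.4% of all genes), and 3 with median-ratio scaling (against 15.5%). With the trends of GC content and length removed, 1 was (against 15.1%). Psmb4, a structural subunit at chr3:94688015-94690883 (minus strand, build NCBIM37, that is mm9), was 76.8, 92.6 and 101 TPM in the WT libraries and 112, 111 and 109 TPM in the LRP5-KO libraries. The WT libraries were spread widely, with a mean of 90.05 ± 12.2 TPM (SD, n = 3), while the LRP5-KO libraries stood at 111 ± 1.66 TPM (SD, n = 3). The log2 fold change was 0.30 (standard error 0.10, limma adjusted p = 0.155), and 0.13 against WT replicate 3 alone. Psmb3, the most abundant transcript among the Psm symbols, was 132, 147 and 172 TPM in WT and 175, 179 and 176 TPM in LRP5-KO libraries (log2 fold change 0.24, limma adjusted p = 0.203). In Psmb3 nearly the whole difference came from WT replicates 1 and 2, and against WT replicate 3 alone it was 0.03. Without WT replicate 3, Psmb4 and Psmb3 were called (limma adjusted p = 0.0312 and 0.0211), as were 19.6% of all genes, and over the alternatives their adjusted p ranged from 0.0312 to 0.363 and from 0.0211 to 0.775. Psmb2 was 70.2, 65.6 and 62.7 TPM in WT and 71.5, 71.4 and 81.1 TPM in LRP5-KO libraries, so that the lowest LRP5-KO value lay just above the highest WT value.

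The 3 catalytic subunits and their immunoproteasome counterparts were compared next. Psmb6, the caspase-like subunit, had the least scatter, with 88.4, 88.3 and 87.1 TPM in WT and 101, 99.0 and 97.4 TPM in LRP5-KO libraries. Its log2 fold change was 0.17 (standard error 0.059, limma adjusted p = 0.159), and it was 0.18 against WT replicate 3 alone. Psmb5, the chymotrypsin-like subunit, was 47.9, 56.6 and 60.1 TPM in WT and 65.4, 66.4 and 61.2 TPM in LRP5-KO libraries (log2 fold change 0.23, limma adjusted p = 0.202). Psmb7, the trypsin-like subunit, was 70.2, 81.3 and 72.1 TPM in WT and 86.9, 84.4 and 81.7 TPM in LRP5-KO libraries (log2 fold change 0.18, limma adjusted p = 0.216). None of the 3 overlapped between the groups, and Psmb5 and Psmb7 differed by less than 2 TPM between the closest libraries of the groups. With the trends of GC content and length removed, the groups overlapped in all 3. The log2 fold changes of Psmb6, Psmb5 and Psmb7 were then 0.02, 0.08 and 0.14.

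Among the immunoproteasome subunits, Psmb8 was the most abundant and overlapped. It was 75.0, 66.4 and 79.8 TPM in WT and 81.6, 86.4 and 72.8 TPM in LRP5-KO libraries (log2 fold change 0.12, 95% interval −0.10 to 0.35, limma adjusted p = 0.472). Psmb9 was 31.2, 42.3 and 44.7 TPM in WT and 46.8, 45.3 and 47.2 TPM in LRP5-KO libraries (log2 fold change 0.25, 95% interval −0.05 to 0.55, limma adjusted p = 0.288). Psmb10 was 8.84, 8.84 and 11.1 TPM in WT and 11.3, 11.2 and 11.5 TPM in LRP5-KO libraries (log2 fold change 0.23, limma adjusted p = 0.218). For Psmb9 and Psmb10 the groups did not overlap, yet WT replicate 3 lay within 1 TPM of the lowest LRP5-KO library, and against it alone the log2 fold changes were 0.06 and 0.03. Without WT replicate 3, Psmb10 was called (limma adjusted p = 0.0234, from 0.0234 to 0.874 over its alternatives), and without WT replicate 1 the log2 fold change of Psmb9 was 0.09.

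Immunoproteasome subunits were a substantial part of the catalytic transcripts in every library. Since TPM is per length, the genes can be set against each other. Psmb8 was 1.57, 1.17 and 1.33 times Psmb5 in the WT libraries and 1.25, 1.30 and 1.19 times in the LRP5-KO libraries. Psmb9 was 0.35, 0.48 and 0.51 times Psmb6 in WT and 0.46, 0.46 and 0.48 times in LRP5-KO libraries. Psmb10 was 0.13, 0.11 and 0.15 times Psmb7 in WT and 0.13, 0.13 and 0.14 times in LRP5-KO libraries. All 3 ratios overlapped between the groups, and the LRP5-KO libraries lay inside the WT range in each. Together Psmb8, Psmb9 and Psmb10 made up 36.1% ± 2.01 (SD, n = 3) of the TPM of the 6 catalytic genes in WT and 35.8% ± 0.55 (SD, n = 3) in LRP5-KO libraries. The mean log2 ratio in LRP5-KO minus WT libraries was −0.11 for Psmb8 to Psmb5, 0.08 for Psmb9 to Psmb6 and 0.07 for Psmb10 to Psmb7, each less than the SD among the WT libraries (0.21, 0.29 and 0.25).

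**Figure D3:**
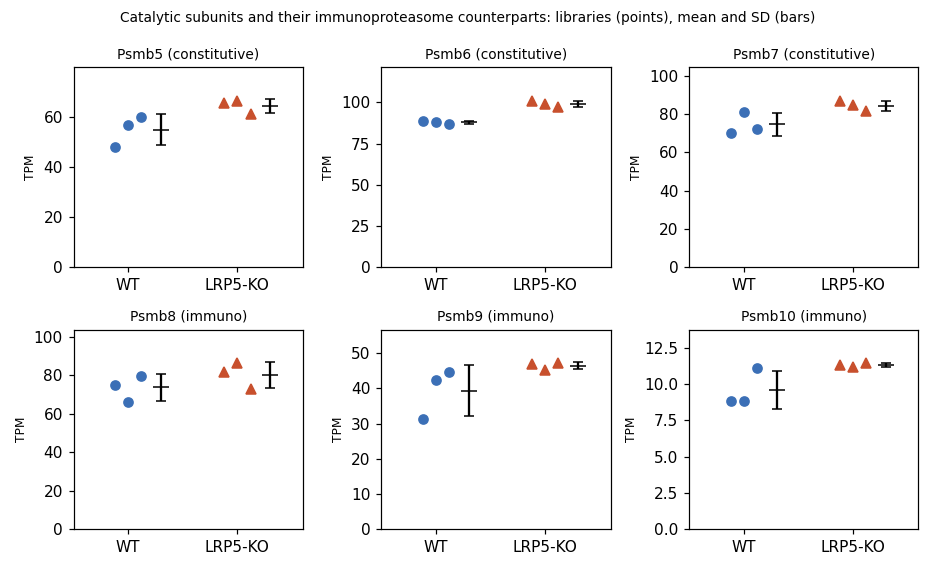
TPM of the constitutive catalytic subunits Psmb5, Psmb6 and Psmb7 (upper row) and of Psmb8, Psmb9 and Psmb10 that take their places in the immunoproteasome (lower row). Points are libraries in the order of replicates 1 to 3 and bars are the mean with its SD (n = 3), on axes that start at 0; in Psmb10 the WT libraries divide into 2 at 8.84 TPM and 1 at 11.1 TPM, next to the LRP5-KO libraries at 11.2 to 11.5 TPM.

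The 250 bases before the start sites of these genes are shown because constitutive proteasome genes are known targets of the stress factor NRF1, encoded by Nfe2l1, through antioxidant response elements, and immunoproteasome genes of interferon. The sequences are those of RefSeq on GRCm38.p6 and are given 5′ to 3′ on the strand of the gene. A table of promoters held 40 of the 47 tested genes, in 43 windows. It did not hold Psmb1, Psmb2, Psmb7, Psmc3, Psmd3, Psmd7 and Psmg2. Capitals mark matches, on either strand, to TGACNNNGC or TGAGNNNGC (letters of an antioxidant response element), to GAAA, any 2 bases and GAAA again (an interferon-stimulated response element) and to TTCNNNGAA (a gamma-activated site).
Psmb5, chr14:54617996-54618245, minus strand: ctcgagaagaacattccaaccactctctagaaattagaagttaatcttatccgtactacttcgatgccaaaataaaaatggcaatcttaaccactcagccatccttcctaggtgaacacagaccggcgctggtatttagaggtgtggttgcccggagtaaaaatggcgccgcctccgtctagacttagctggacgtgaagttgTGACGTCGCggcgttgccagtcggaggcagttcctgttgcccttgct
Psmb6, chr11:70525107-70525356, plus strand: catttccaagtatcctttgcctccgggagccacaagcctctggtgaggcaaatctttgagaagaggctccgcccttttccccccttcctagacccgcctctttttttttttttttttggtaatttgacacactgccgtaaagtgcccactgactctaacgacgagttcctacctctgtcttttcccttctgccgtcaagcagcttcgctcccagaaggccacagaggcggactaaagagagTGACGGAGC
Psmb8, chr17:34197945-34198194, plus strand: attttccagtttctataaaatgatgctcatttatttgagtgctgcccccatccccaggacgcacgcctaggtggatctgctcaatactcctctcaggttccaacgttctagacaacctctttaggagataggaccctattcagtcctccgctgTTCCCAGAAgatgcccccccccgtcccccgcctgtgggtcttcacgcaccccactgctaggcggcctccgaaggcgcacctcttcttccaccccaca
Psmb9, chr17:34187331-34187580, minus strand: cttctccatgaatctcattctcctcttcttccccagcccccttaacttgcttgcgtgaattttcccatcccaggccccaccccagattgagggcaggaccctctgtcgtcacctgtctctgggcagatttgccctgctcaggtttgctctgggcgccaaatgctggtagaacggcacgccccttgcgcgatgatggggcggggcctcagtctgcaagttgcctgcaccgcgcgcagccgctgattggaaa
Psmb3, chr11:97703184-97703433, plus strand: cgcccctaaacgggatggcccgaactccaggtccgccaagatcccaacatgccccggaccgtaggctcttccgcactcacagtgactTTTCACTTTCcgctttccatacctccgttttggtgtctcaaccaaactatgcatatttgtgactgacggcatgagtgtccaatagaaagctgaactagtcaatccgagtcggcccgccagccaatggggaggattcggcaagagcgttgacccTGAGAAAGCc
Psmd12, chr11:107479278-107479527, plus strand: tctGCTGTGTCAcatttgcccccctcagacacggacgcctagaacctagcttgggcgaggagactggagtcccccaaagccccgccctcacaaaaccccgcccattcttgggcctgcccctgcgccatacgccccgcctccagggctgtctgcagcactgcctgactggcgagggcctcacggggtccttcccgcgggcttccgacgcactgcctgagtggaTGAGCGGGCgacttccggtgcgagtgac
The antioxidant response letters began 47 bases before the start site of Psmb5 and 9 bases before that of Psmb6. In Psmd12, whose values lay in the opposite direction, they were found at 247 and 28 bases before the start. Psmb3 held them at 10 bases and the interferon-stimulated letters at 163 bases before its start. Psmb8 held the gamma-activated letters 97 bases before its start, and Psmb9 held none of the 4 motifs in this window. Over all tested proteasome genes, 12 of 40 had an antioxidant response match (30.2% of 43 windows, against 23.0% of all 32851 windows of this length), 3 an interferon-stimulated match (7.0% against 3.0%) and 2 a gamma-activated match (4.7% against 7.0%). A match is a run of letters and not evidence of binding. The window of Psmb9 shares 225 bases with that of Tap1, the peptide transporter gene that is read in the other direction. In Tap1 the values were 37.1, 30.8 and 37.5 TPM in WT and 29.3, 28.3 and 30.4 TPM in LRP5-KO libraries (log2 fold change −0.25, limma adjusted p = 0.176), lower without overlap, while those of Psmb9 were higher without overlap.

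None of the activators of the core passed the test. Psme1, the alpha subunit of PA28, was 117, 136 and 115 TPM in WT and 141, 114 and 145 TPM in LRP5-KO libraries, so that LRP5-KO replicate 2 was the lowest of all 6 (log2 fold change 0.11, limma adjusted p = 0.559). Psme2, the beta subunit, was 80.9, 106 and 97.6 TPM in WT and 111, 112 and 102 TPM in LRP5-KO libraries (log2 fold change 0.20, limma adjusted p = 0.295). WT replicate 2 lay among the LRP5-KO values. Psme2b, an intronless gene of 837 bases that carries a copy of Psme2, was 18.1, 16.2 and 19.1 TPM and 15.3, 16.5 and 17.2 TPM. Reads of Psme2 and Psme2b could be split between the copies in the authors' quantification, so both values are uncertain. The 5 immunoproteasome genes Psmb8, Psmb9, Psmb10, Psme1 and Psme2 had a median log2 fold change of 0.20. Of them 0 passed the test and 2 were higher without overlap (against 17.4% of all genes). Their sums were 313, 359 and 348 TPM in WT and 391, 369 and 378 TPM in LRP5-KO libraries. Their median was 0.06 against WT replicate 3 alone and 0.09 without WT replicate 1. With the trends of GC content and length removed, 0 of the 4 with a known transcript were without overlap. Psme3, the nuclear gamma form of PA28, was lower, with 44.8, 43.6 and 44.8 TPM in WT and 37.8, 38.2 and 41.3 TPM in LRP5-KO libraries (log2 fold change −0.18, standard error 0.068, limma adjusted p = 0.177). This difference was −0.19 against WT replicate 3 alone. Psme4, the PA200 activator, lay between 16.7 and 17.7 TPM in all libraries (log2 fold change −0.0034, 95% interval −0.16 to 0.15). Psmf1, an inhibitor of the core in vitro, was 3.06 TPM in WT replicate 1 and between 4.44 and 4.64 TPM in the other 5 libraries.

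The regulatory particle differed little between the groups. Of its 17 genes, 10 had a log2 fold change above 0 and 7 below, 0 passed the test, and the groups did not overlap in 1 that was higher (Psmc4, against 17.4% of all genes) and 3 that were lower (Psmc1, Psmd1 and Psmd12, against 12.3%). With the trends of GC content and length removed, the log2 fold change of Psmc4 was −0.03. The median log2 fold change was 0.04, that of all genes. The 17 genes summed to 745, 722 and 721 TPM in WT replicates 1 to 3 and to 735, 739.9 and 726 TPM in LRP5-KO replicates 1 to 3. These sums overlapped, at 729 ± 13.4 TPM (SD, n = 3) in WT and 734 ± 7.28 TPM (SD, n = 3) in LRP5-KO libraries. Hence the core sum over the regulatory sum was 1.53, 1.6 and 1.59 in WT and 1.74, 1.72 and 1.72 in LRP5-KO libraries. These ratios did not overlap, with means of 1.58 ± 0.037 and 1.73 ± 0.011 (SD, n = 3 each), and WT replicate 3 lay with the other WT libraries. Sem1, a small lid subunit that the choice by symbol leaves out, was 272, 268 and 268 TPM in WT and 293, 292 and 286 TPM in LRP5-KO libraries (log2 fold change 0.11, limma adjusted p = 0.284). With Sem1 counted in, a choice made after seeing the data, the regulatory sums still overlapped and the ratios were 1.12, 1.17 and 1.16 in WT and 1.24, 1.24 and 1.23 in LRP5-KO libraries, without overlap. Whether the core genes differed more than the regulatory genes was not tested, since both lists were drawn up with earlier results of these data known.

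**Figure D4:**
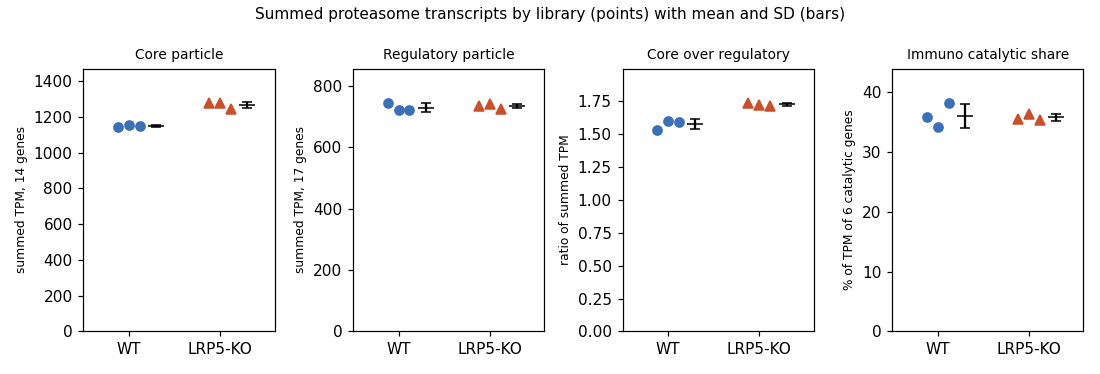
Summed TPM of the 14 core genes and of the 17 regulatory genes, the ratio of these sums, and the share of Psmb8, Psmb9 and Psmb10 in the TPM of the 6 catalytic genes (%), all on axes that start at 0. Points are libraries in the order of replicates 1 to 3, and bars are the mean with its SD (n = 3). The groups do not overlap in the core sum or the ratio and overlap in the other panels. The sums are without median-ratio scaling.

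Psmd12, a lid subunit at chr11:107340798-107365676 (plus strand, NCBIM37), had the smallest p of the proteasome genes. It was 29.5, 29.8 and 27.7 TPM in WT and 23.5, 23.4 and 23.9 TPM in LRP5-KO libraries. The groups stood well apart, at 29.0 ± 1.11 and 23.6 ± 0.26 TPM (SD, n = 3 each). The log2 fold change was −0.29 (standard error 0.067, 95% interval −0.44 to −0.13, limma adjusted p = 0.0956). It ranged from −0.32 to −0.27 when each library was left out, was −0.23 against WT replicate 3 alone and −0.29 with the trends of GC content and length removed. In that last fit, and without WT replicate 3, it was called (limma adjusted p = 0.0299 and 0.0208, from 0.0208 to 0.324 over its alternatives). With the trends removed, 4.9% of all genes were called.

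The other lid and base genes overlapped or stood close. Psmd8, the most abundant lid gene among the Psm symbols, was 77.7, 75.8 and 80.3 TPM in WT and 79.7, 80.7 and 80.8 TPM in LRP5-KO libraries, with overlap. Psmd3, the least abundant, was 9.48, 11.2 and 14.4 TPM in WT and 12.5, 14.6 and 13.3 TPM in LRP5-KO libraries (log2 fold change 0.20, limma adjusted p = 0.410), and −0.09 against WT replicate 3 alone. Psmd14, the deubiquitinase of the lid, had a log2 fold change of −0.13 with a 95% interval from −0.38 to 0.13, and of 0.08 against WT replicate 3 alone. In the base, the ATPase gene Psmc3 was 67.6, 60.6 and 57.1 TPM in WT and 74.3, 68.4 and 63.8 TPM in LRP5-KO libraries (log2 fold change 0.15, limma adjusted p = 0.336). LRP5-KO replicate 3 lay inside the WT range, and the other two above it. Psmc5, the least abundant ATPase gene, was 29.7, 27.6 and 30.9 TPM in WT and 28.3, 27.8 and 28.5 TPM in LRP5-KO libraries. The ATPase gene Psmc1 was 50.2, 50.9 and 52.2 TPM in WT and 45.7, 46.9 and 46.9 TPM in LRP5-KO libraries, lower without overlap (log2 fold change −0.13, limma adjusted p = 0.240). Psmd4, a ubiquitin receptor, was 62.2, 59.8 and 63.8 TPM in WT and 73.0, 68.2 and 63.4 TPM in LRP5-KO libraries. Its LRP5-KO replicates 1 and 2 lay above all WT libraries and replicate 3 among them. Psmd1, a scaffold of the base, was 29.8, 27.3 and 27.3 TPM in WT and 25.7, 27.0 and 26.6 TPM in LRP5-KO libraries, so that its groups were separated by less than 1 TPM. Over the 17 genes, the 95% intervals of the log2 fold changes reached from −0.44 to 0.54.

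Except for Psmd10, the assembly chaperones with a Psm symbol had means of 1.5 to 8.97 TPM, below the 10.5 TPM of the least abundant subunit, Psmb10. Psmg1, which pairs with Psmg2 in assembling the alpha ring, was 3.37, 3.25 and 2.96 TPM in WT and 4.38, 3.64 and 4.09 TPM in LRP5-KO libraries (log2 fold change 0.26, limma adjusted p = 0.155). Its partner Psmg2 overlapped, with 1.82, 1.46 and 1.32 TPM in WT and 1.72, 1.13 and 1.53 TPM in LRP5-KO libraries. Psmg3 was 7.48, 8.35 and 8.86 TPM in WT and 9.80, 9.38 and 9.95 TPM in LRP5-KO libraries, higher without overlap (log2 fold change 0.22, limma adjusted p = 0.182), whereas its partner Psmg4 had a log2 fold change of −0.19 and overlapped. Of each pair, only the first was higher without overlap. The chaperones of the regulatory particle, Psmd5, Psmd9 and Psmd10, all overlapped between the groups. Psmd10, also known as gankyrin, was 35.5, 32.7 and 29.6 TPM in WT and 29.5, 32.5 and 29.8 TPM in LRP5-KO libraries, and Psmd9 was 5.35, 4.53 and 4.56 TPM and 5.06, 4.75 and 6.07 TPM.

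The direction of the proteasome genes went with the GC content of their transcripts. Over 46 tested genes with a transcript in the annotation, the Spearman correlation of the log2 fold change with GC content was 0.55, and 0.04 when WT replicate 3 alone stood for WT. These points share libraries and are a description. The median GC content was 48.9% for the 14 core genes, 52.2% for the 7 beta subunits, 49.8% for the 17 regulatory genes and 55.3% for the immunoproteasome genes. Against WT replicate 3 alone, a single library that all genes share and that gives no spread of its own, the 3 LRP5-KO libraries all lay above it in 12 of the 14 core genes (against 31.4% of all genes) and in 4 of the 17 regulatory genes, and the core median was 0.13. For the immunoproteasome genes 3 of 5 lay above. With the trends of GC content and length removed from each library, 12 of 14 core genes had a log2 fold change above 0 with a median of 0.10, where 50% of all genes were above 0, and 3 in place of 9 were higher without overlap (against 15.1% of all genes). The immunoproteasome median was then 0.05 over 4 genes and that of the regulatory genes −0.03.

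**Figure D5:**
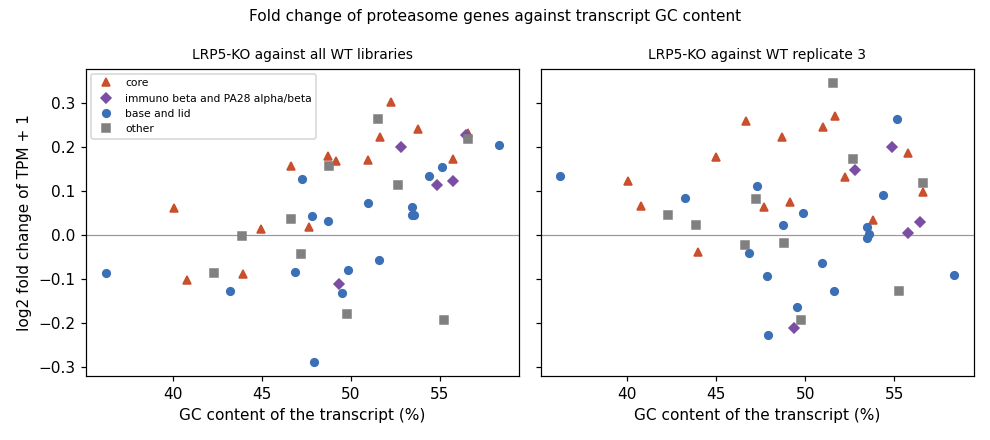
log2 fold change of TPM + 1 of the 46 tested proteasome genes with a known transcript against the GC content of that transcript (%), for LRP5-KO against all WT libraries (left) and against WT replicate 3 alone (right), with triangles for core, diamonds for immunoproteasome and PA28, circles for base and lid and squares for other genes. The upward trend with GC content on the left (Spearman correlation 0.55) is absent on the right (0.04), where 13 of the 14 core genes lie above 0 (48.6% of all genes do).

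Genes that work with the proteasome were taken from lists drawn up by function. Of 21 proteasome-associated genes, all of which were tested, 0 passed the test, 2 were higher without overlap (Pomp and Sem1) and 3 were lower (Ngly1, Zfand5 and Rad23b), where 17.4% and 12.3% of all genes were, and their median log2 fold change was 0.00062. The log2 fold change of Pomp, a chaperone of the assembling core, was 0.08 (limma adjusted p = 0.508), and that of Adrm1, a ubiquitin receptor of the base, was −0.02 (limma adjusted p = 0.932). For Nfe2l1 the value was 0.19 (limma adjusted p = 0.432), with overlapping groups. The 3 with the smallest p were lower, Zfand5 at −0.19, Ngly1, which activates NRF1, at −0.18 and Rad23b, a shuttle for tagged proteins, at −0.18, with limma adjusted p of 0.162, 0.208 and 0.208. Of 5 genes of ubiquitin and its activating enzyme, 4 had a log2 fold change above 0 (against 58.8% of all genes). Of these, Rps27a (0.21, limma adjusted p = 0.132) and Ubb (0.14, limma adjusted p = 0.192) were higher without overlap (against 17.4% of all genes). The median GC content of these 5 genes was 54.1%. Of 14 genes of MHC class I loading and its regulators, 0 passed the test, 7 were lower without overlap (against 12.3% of all genes), 6 had lower values at an unadjusted p under 0.05 (against 9.12%) and 1, H2-K1, was higher without overlap (log2 fold change 0.32, limma adjusted p = 0.149). Among those that were lower were the chaperones of the loading complex Calr (−0.37, limma adjusted p = 0.0648) and Pdia3 (−0.30, limma adjusted p = 0.104). The median over that list was −0.09.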

How the data were processed

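Per the study's methods, the authors aligned the reads to mm9 and named the DESeq2 pipeline, and they deposited a table of TPM per gene. The tool that gave TPM is not given in the sources used here, and gene identifiers carry versions newer than that build. The authors also deposited counts of reads and percent shares of reads per library. TPM keeps no depth, so errors come from replicates alone.

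Genes averaging 1 TPM or more were tested with limma 3.58.1 (R 4.3.3) on log2(TPM + 1), a scale on which fold changes of weakly expressed genes come out too small, with a mean-variance trend, no covariates and Benjamini-Hochberg adjustment. The fit was tested on simulated data. Members and lists were chosen with earlier results of these data known. Values per library are given for the immunoproteasome and catalytic genes, the 10 smallest p and the most and least abundant gene of each class; Psma1 and Psmc1 were added after their values were seen. GC content and length came from the longest transcript in GENCODE M1 (NCBIM37). Alternatives changed the pseudocount, filter, scaling, limma options, libraries, covariates and GC trends, and replicate numbers served as a block. Of the genes this rule names outside the proteasome, not all are reported here.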

Additional observations from a re-analysis of the deposited data

How the results depend on the processing

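The number of genes called over all genes tested was 52, and between 2 and 1920 when each library was left out. It was 3 without a filter, 29 with a mean of at least 5 TPM, 96 when rescaled without mitochondrial and the 20 most abundant genes, 6 with the ribosomal share as a covariate, 6 against WT replicate 3 alone and 430 once trends of GC and length were removed. The number of proteasome genes called was 0, from 0 to 4 when each library was left out (4 without WT replicate 3: Psmb3, Psmb4, Psmb10 and Psmd12, against 19.6% of all genes) and 1 of 46 with the trends removed (Psmd12, against 4.9% of all genes). Proteasome genes without overlap numbered 19, from 21 to 28 when a library was left out and 10 with the trends removed. Against WT replicate 3 alone they numbered 32. With fewer libraries, groups of any gene overlap less often, so the counts from 21 to 28 and of 32 cannot be compared with 19. Of the 19, 32 and 10 genes, 14, 23 and 4 were higher. Of all genes, 17.4%, 31.4% and 15.1% were higher without overlap in these settings. That share is not given for the settings without single libraries.

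The core median of 0.17 was 0.13 with median-ratio scaling, 0.14 with the ribosomal covariate, 0.13 against WT replicate 3 and 0.096 with the trends removed, and from 0.14 to 0.18 without single libraries. The regulatory median of 0.04 was 0.00069, 0.00088 and −0.031 with median-ratio scaling, against WT replicate 3 and with the trends removed, and from 0.0023 to 0.066 without single libraries. The immunoproteasome median of 0.20 was 0.056 against WT replicate 3, 0.048 with the trends removed and from 0.094 to 0.22 without single libraries, the lowest without WT replicate 1. Against WT replicate 3 the log2 ratios of Psmb9 to Psmb6 and Psmb10 to Psmb7 were −0.13 and −0.20, and their ranges without single libraries were −0.08 to 0.19 and −0.05 to 0.20. Counting Sem1 with the regulatory particle, chosen after seeing the data, took the core over regulatory ratio from 1.10 to 1.08 times that of WT. Without single libraries, the log2 ratio of Psmb8 to Psmb5 ranged from −0.21 to −0.0034, and the log2 fold change of Lrp5 from 0.26 to 0.36. For Lrp5 it was 0.49 with a pseudocount of 0.1 and 0.22 with quantile normalization.

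Of the 47 tested genes, 19 turned direction in some setting, of which 18 overlapped between the groups and 1, Psmc4, did not. Of the 30 given by library under the naming rule, 7 turned. Psme4 was 0.022 when rescaled, 0.015 with the ribosomal covariate, 0.023 against WT replicate 3 and 0.024 with the trends removed, and from −0.016 to 0.021 without single libraries. Psmg2 was 0.054 with the covariate and 0.080 against WT replicate 3, and from −0.12 to 0.058 without single libraries. Psmd10 was 0.00010 with the covariate, 0.045 against WT replicate 3 and 0.031 with the trends removed. Psmd3 was −0.0040 with the covariate and −0.090 against WT replicate 3, where Psmf1 was −0.019. With the trends removed Psmd8 was −0.051 and Psme1 −0.011. The cause was not tested.

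The replicate numbers did not pair the libraries. Deviations of same-numbered libraries from their group means correlated at 0.23, −0.0075 and 0.13, and not every library correlated best with its own number. The replicate block left 4 genes called over all genes and 0 proteasome genes. Depth per gene is unknown from TPM.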
